A study of Mus musculus with 96 samples.

Results

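The livers of mice on chow formed 24 of the 96 libraries of the series, and they were taken by their labels alone, tissue liver and diet CD. C57BL/6N males, bought at 4 weeks of age, received LabDiet 5001 with 13.5% fat (the chow diet, CD) and were sampled after 4, 8, 12, 16, 20 or 24 weeks, with 4 mice at each time and a fixed liver region per mouse. The 24 livers of mice on Research Diets D12492 with 60% fat (the high-fat diet, HFD), from the same 6 weeks, were used only for comparison, and the islet libraries of the same 24 CD mice were used for a few genes. The labels give no transgene or drug for any group, and each mouse was sampled in 1 week only. Weeks on chow, age of the mouse and date of collection therefore moved together and cannot be told apart in CD liver.

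Most of the messenger RNA of liver comes from hepatocytes, which make the plasma proteins, build and burn fat, and clear ammonia and foreign compounds. Inflammation reaches hepatocytes through cytokines of the interleukin-6 family, whose signal runs through the transcription factor STAT3 to the acute-phase genes. Fatty acid oxidation is set by the nuclear receptor PPARα, which is most active in fasting, whereas the SREBP factors drive the synthesis of fatty acids and cholesterol in the fed state or when sterols are scarce. Hepatocytes also differ by position: those near the portal vein make urea, and those near the central vein respond to Wnt signals and make glutamine.

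All values below are fragments per kilobase of transcript and 1e+06 mapped fragments (FPKM), as deposited, and the depth of the libraries is unknown. The 11 hepatocyte markers were present in all 24 libraries, with albumin, Alb, between 18896 and 46057 FPKM and the lowest value at 76.7 FPKM for Apob. Between 9347 and 10066 genes reached 1 FPKM per library. The mice CD103 and CD104 at week 4 stood apart from the other 22 on the first principal component, which held 25.3% of the variance, with scores of -46.0 and -45.8 against -7.4 to 22.6. These 2 libraries were also the most alike of all pairs (Pearson r of 0.995 across genes), so the main counts that rest on week 4 are given without them too. CD306 at week 12 and CD407 in week 16 carried transcripts of pancreas, described at the end.

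The first question was how much of the CD liver transcriptome followed a straight line over the 6 weeks. Of 10385 genes tested, 1543 had a trend (14.9%), 793 of them upwards (7.64%) and 750 downwards (7.22%), by limma on log2(FPKM + 1) with Benjamini-Hochberg adjusted p under 0.05. The fitted change from week 4 to week 24, which is the slope times 20 weeks on that scale, was at least 1 in 133 of them, 88 upwards (0.847%) and 45 downwards (0.433%), and without CD103 and CD104 these were 79 and 31. Its median over all genes tested was 0.05. Between the end points, week 24 against week 4, 3921 genes differed (37.8%), 2333 higher (22.5%) and 1588 lower (15.3%) at week 24. Without CD103 and CD104, 1117 genes differed between these weeks. A difference among any of the 6 weeks was called for 5747 genes (55.3%), and for 4329 without CD103 and CD104.

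Most trend calls at the adjusted threshold were lost without week 24, an end point of the line. With week 24 left out, 82 genes had a trend, and 74 of the 1543 were still called in the same direction (4.8%). Without week 4, the other end point, 744 genes were called, 430 of the 1543 among them (27.9%). At an unadjusted p under 0.05 limma gave near-equal counts, 2310 genes without week 24 and 2344 without week 4, against 3367 with all weeks. Without CD606 alone 884 genes were called. Without CD103 and CD104 the count was 692, and 572 of the 1543 were still called (37.1%). When the 6 week means were used as 6 values, limma called 0 genes, against 1029 at an unadjusted p under 0.05.

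The steps between consecutive weeks were unequal. From week 4 to week 8, 3526 genes differed (34%), from 8 to 12 it was 371 (3.57%), from 12 to 16 it was 298 (2.87%), from 16 to 20 it was 1470 (14.2%), and from 20 to 24 it was 48 (0.462%). By direction, 2286 genes were higher (22%) and 1240 lower (11.9%) at week 8 than in week 4, 105 higher (1.01%) and 266 lower (2.56%) at week 12 than in week 8, and 135 higher (1.3%) and 163 lower (1.57%) at week 16 than in week 12. The step to week 20 had 1040 higher (10%) and 430 lower (4.14%), and that to week 24 had 31 higher (0.299%) and 17 lower (0.164%). The direction of a step depended on the scaling: with median-ratio size factors the step from week 8 to 12 had 218 higher and 156 lower genes, and that from 16 to 20 had 893 and 759, while the trend genes were 51.4% higher under both. HFD liver, other mice sampled in the same weeks, had its large steps at the same places, with 2360 (22%), 16 (0.149%), 130 (1.21%), 1121 (10.5%) and 9 (0.0839%) genes. Of the 1470 genes called between week 16 and week 20 in CD, 1463 were tested in HFD, and 97% of these had the same sign there, compared with 79.8% of all genes tested in both diets. The shares for the genes called in the other steps were 88.7% from week 4 to 8 (all genes 72.9%), 83.4% from 8 to 12 (62.7%), 100% from 12 to 16 (77.4%) and 66.7% from 20 to 24 (60.1%). The step from week 4 to week 8 rested largely on CD103 and CD104: without them 167 genes were called, 125 of the 3526 among them, although 3510 kept their sign. The later steps had 1092, 1541, 2437 and 184 genes without them. Single libraries also decided the smaller steps. The step from week 8 to 12 had 26 genes without CD306 and 1071 without CD304, that from 12 to 16 had 69 without CD306 and 690 without CD106, that from 16 to 20 had 602 without CD502, and that from 20 to 24 had 0 without CD501, against 1416 at an unadjusted p under 0.05.

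**Figure D1:**
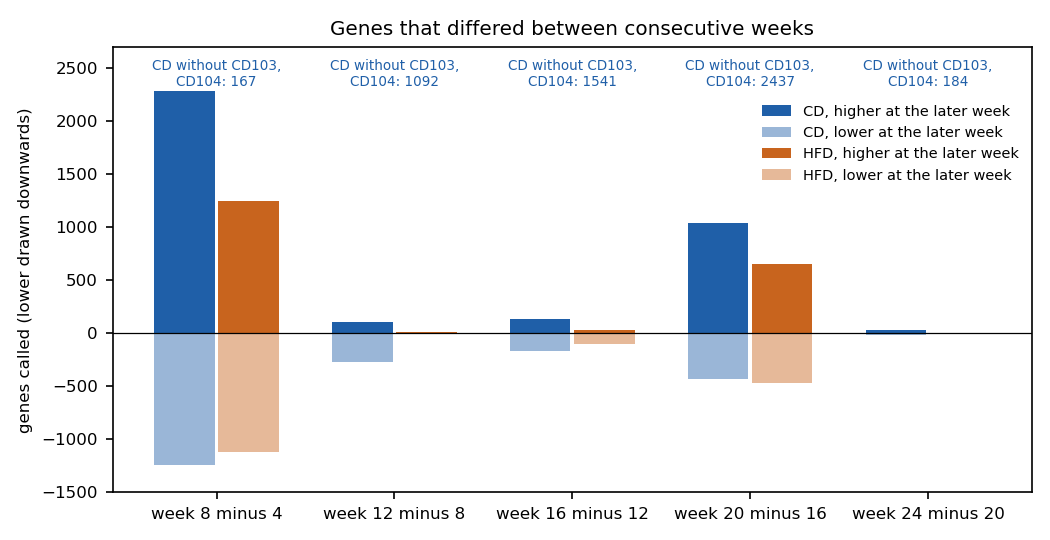
Number of genes called between consecutive weeks (limma, adjusted p under 0.05), with genes higher at the later week above 0 and genes lower at the later week below 0, for CD and HFD liver with 4 mice per week and diet. The bars are tallest from week 4 to 8 (3526 genes in CD) and from week 16 to 20 (1470), and the printed numbers give the CD count without CD103 and CD104.

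A set of 45 genes was called whichever week was left out, and also without CD103 and CD104. It held 21 rising and 24 falling genes, and 44 were tested in HFD liver, where all 44 had the same sign and 34 were called. The same sign in HFD was also found for 97.5% of all CD trend genes and 75.7% of all genes tested in both. A trend was called in HFD for 15.8% of the genes tested there, and with the same sign for 49.1% of the CD trend genes. The genes of the set fall outside the naming rule, apart from members of the lists, and those named here were chosen after their values were seen. Ldha, which encodes the A subunit of lactate dehydrogenase, rose by 1.28 ± 0.18 (SE) with an adjusted p of 0.00017. Its FPKM were 486, 265, 292 and 273 at week 4, between 282 and 443 in week 8, between 383 and 758 at week 12, and 754, 964, 963 and 786 in week 24. All week-24 mice were thus above all mice of weeks 4, 8, 16 and 20, and CD306 at week 12, at 758 FPKM, lay just above the lowest of them. Apoc3, an apolipoprotein that slows the clearance of triglyceride-rich particles, fell by 1.14 on the log2 scale (SE 0.16, adjusted p = 0.00017). It went from 4799, 6510, 7732 and 6161 FPKM at week 4 to 3898 to 5526 in week 8, 2878 to 3809 at week 12, and 2352, 2766, 2606 and 2010 in week 24. All week-24 mice were below all mice of every earlier week. Apoc1 fell by 1.01 and Ttr, the carrier of thyroxine and retinol-binding protein, by 0.84. Ctsc, the lysosomal protease that activates the serine proteases of neutrophils, rose by 1.43, and Zbp1, an interferon-induced sensor of nucleic acids, by 1.47. Vcam1, an adhesion molecule for leukocytes, rose by 0.84, Nrp2, a co-receptor for vascular endothelial growth factors, by 1.03, and Abhd2, a lipid hydrolase, by 1.40. Car14, a carbonic anhydrase at the cell surface, fell by 1.34.

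**Figure D2:**
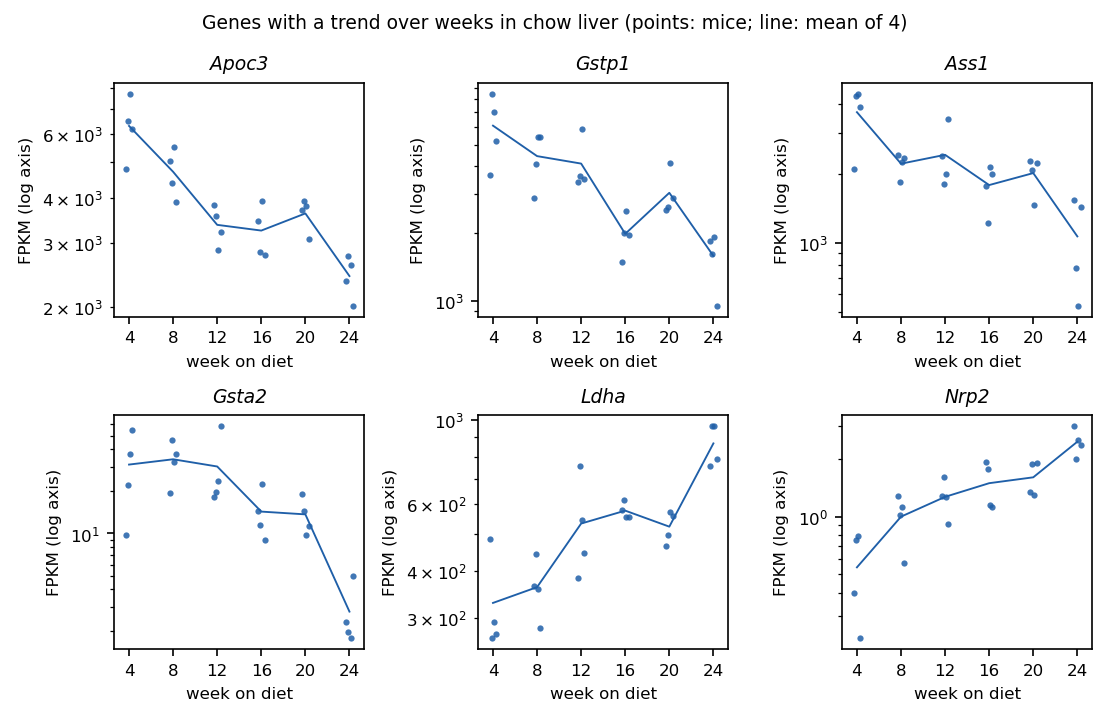
FPKM (log axis) against weeks on chow for 6 genes with a trend in CD liver, with a point for each of the 24 mice and a line through the mean of 4 mice per week. Apoc3, Gstp1, Ass1 and Gsta2 ended lowest at week 24 and Ldha and Nrp2 highest, and week 4 and week 24 did not overlap for any of the 6.

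The acute-phase genes, whose products hepatocytes release into plasma during inflammation, rose together. Of 24 such genes, all tested, 18 rose and 0 fell, where 7.64% of all genes rose, and their median fitted change was 1.36 against 0.05 for all genes. With CD103 and CD104 left out 19 rose, with any single library left out 16 to 22 did, and without week 24 none was called, at a median of 0.775. The genes were Lcn2, which binds bacterial siderophores, Saa3 and Saa4 of the serum amyloid A family, Hp and Hpx, which capture haemoglobin and haem, the fibrinogen chains Fga, Fgb and Fgg, Apcs, Lbp, Itih3, Itih4, Cp, Serpina3n, Il1rn, Steap4, Crp and C3. The 6 without a call were Saa1, Saa2, Orm1, Orm2, Orm3 and Il6ra, with fitted changes from 0.32 to 4.95. The call of Saa3 was lost without CD601 or without CD606, and that of Hpx without any of 11 single libraries. Saa1 and Saa2 are close copies, as are the Orm genes, and reads may have been divided between them.

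In the RefSeq promoters, 4 motifs (E-box CACGTG, D-box TTATGTAA, the interferon-stimulated response element ISRE and the STAT site TTCNNNGAA) were searched on both strands over 6 gene lists. The acute-phase promoters that hold the STAT site are shown, since these genes were the ones that rose. Of the 24 acute-phase genes, 21 were found among the RefSeq promoters (GRCm38.p6, 250 bases before to 50 bases after each start), and 5 of these 21 (23.8%) held TTCNNNGAA, the palindromic form of the site that STAT proteins bind, compared with 8.47% of 27025 promoters. The share was not particular to them, since it was 28.0% of 25 interferon-stimulated and 23.5% of 17 growth hormone axis promoters, lists of which few members had a trend. The other lists were at 11.1% (male-biased), 9.09% (clock repressors and output) and 0% (clock activators). In the acute-phase promoters the E-box was at 4.76% (all promoters 7.24%), the D-box at 0% (0.955%) and the ISRE at 9.52% (3.49%). The STAT motif reads the same on both strands. The 5 windows are printed 5′ to 3′ on the strand of the gene, with the motif in capitals. They lie at chr1:172895005-172895304 (minus strand, Apcs), chr3:83025903-83026202 (plus, Fga), chr3:83049814-83050113 (minus, Fgb), chr14:30886226-30886525 (plus, Itih4) and chr5:7960222-7960521 (plus, Steap4).
Apcs: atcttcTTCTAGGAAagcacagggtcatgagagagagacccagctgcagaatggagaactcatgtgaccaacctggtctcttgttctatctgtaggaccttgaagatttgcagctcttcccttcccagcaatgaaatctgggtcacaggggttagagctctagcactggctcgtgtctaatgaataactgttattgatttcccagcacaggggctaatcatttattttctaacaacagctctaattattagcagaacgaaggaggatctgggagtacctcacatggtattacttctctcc
Fga: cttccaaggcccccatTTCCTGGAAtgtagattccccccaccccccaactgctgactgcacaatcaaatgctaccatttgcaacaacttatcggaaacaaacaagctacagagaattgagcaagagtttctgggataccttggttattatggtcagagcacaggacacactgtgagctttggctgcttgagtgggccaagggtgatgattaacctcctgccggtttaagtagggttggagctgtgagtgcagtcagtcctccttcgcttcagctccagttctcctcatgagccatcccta
Fgb: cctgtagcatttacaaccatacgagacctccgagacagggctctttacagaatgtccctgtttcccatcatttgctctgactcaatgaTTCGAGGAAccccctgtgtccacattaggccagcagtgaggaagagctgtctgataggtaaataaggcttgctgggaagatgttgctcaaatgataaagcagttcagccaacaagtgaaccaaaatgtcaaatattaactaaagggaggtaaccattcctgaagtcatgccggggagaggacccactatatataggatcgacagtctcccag
Itih4: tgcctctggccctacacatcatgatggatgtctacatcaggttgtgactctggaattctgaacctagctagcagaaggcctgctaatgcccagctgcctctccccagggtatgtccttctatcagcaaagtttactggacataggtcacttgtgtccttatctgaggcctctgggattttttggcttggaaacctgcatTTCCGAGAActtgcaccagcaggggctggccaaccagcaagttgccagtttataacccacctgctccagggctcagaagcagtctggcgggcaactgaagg
Steap4: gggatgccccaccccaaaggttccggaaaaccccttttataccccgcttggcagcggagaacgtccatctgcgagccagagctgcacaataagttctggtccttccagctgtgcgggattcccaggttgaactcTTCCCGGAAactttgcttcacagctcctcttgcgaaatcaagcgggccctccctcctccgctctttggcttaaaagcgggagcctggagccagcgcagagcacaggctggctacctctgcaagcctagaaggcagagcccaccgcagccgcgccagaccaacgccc
The first base of the motif lay 244 bases before the start in Apcs, 234 in Fga, 162 in Fgb, 51 in Itih4 and 116 in Steap4. A match describes the letters of the window and shows no binding.

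The course of the acute-phase genes was not a steady climb. Lcn2 stood at 1043, 121, 74.9 and 41.0 FPKM at week 4, fell to 10.7, 3.17, 5.20 and 3.51 in week 8, and was at 74.0, 29.0, 12.6 and 22.0 at week 12. It then reached 15.1 to 298 FPKM at week 16, 132 to 576 in week 20, and 1556, 1089, 992 and 932 at week 24. All 4 week-24 mice were above every other mouse except CD101 at week 4, which was between them. The fitted change of Lcn2 was 4.75 ± 1.26 (SE, adjusted p = 0.014), and the step from week 4 to 8 was -4.55 (adjusted p = 0.0025). Apcs, the amyloid P component of serum, had 290, 78.2, 56.5 and 59.5 FPKM at week 4, 41.9 to 60.0 in week 8, 94.0 to 282 at week 20, and 750, 448, 585 and 739 in week 24, so that week 24 overlapped no other week. It rose by 2.79 ± 0.52 with an adjusted p of 0.0013. Saa1 showed the same dip without a call for the line (fitted change 4.08, adjusted p = 0.074): 829 to 16209 FPKM at week 4, 41.7 to 96.6 in week 8, and 7289 to 27112 at week 24. At week 8 all 4 mice were below all 4 mice of week 4, and the step was -5.77 (adjusted p = 0.002). In all, 12 of the 24 genes fell from week 4 to week 8 (background 11.9% lower) and 1 rose. Without CD103 and CD104, 3 fell, Saa1 and Orm2 among them, and 0 rose, where 1.61% of all genes were called in either direction. The mean log2 level of the list was 8.18 at week 4, 6.83 in week 8, 7.27 at week 12, 8.15 in week 16, 8.53 at week 20 and 9.47 in week 24. HFD liver had 7.45 at week 4, 7.41 in week 8, 7.90 at week 12, 8.04 in week 16, 9.155 at week 20 and 9.06 in week 24. Its mice of week 20 ranged from 7.998 to 10.22. In HFD, 22 of these genes rose (background 8.53%) and 0 fell, and the fitted change of Lcn2 there was 4.80.

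**Figure D3:**
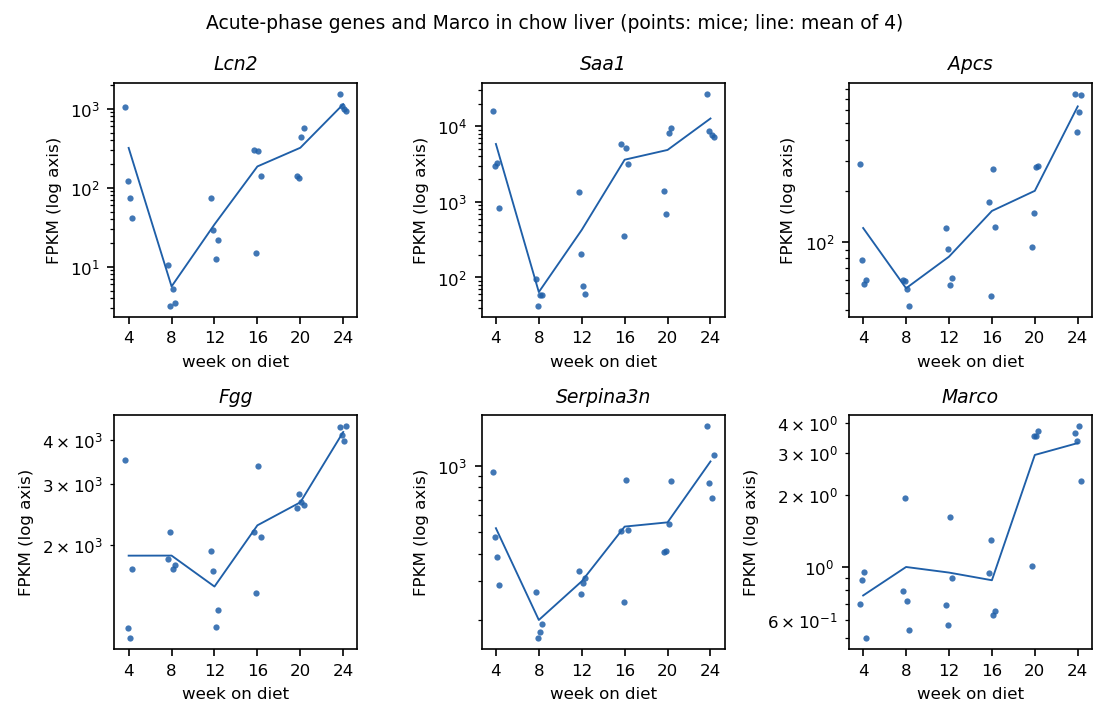
FPKM (log axis) against weeks on chow for 5 acute-phase genes and for Marco, a scavenger receptor of macrophages, with a point for each of the 24 CD livers and a line through the mean of 4 mice. Lcn2 and Saa1 dip at week 8, where Lcn2 has 3.17 to 10.7 FPKM, and all 5 acute-phase genes have their highest mean in week 24.

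Other genes are named for the size of their change or as members of other lists. Fgl1, a hepatocyte protein of the fibrinogen family, rose by 2.48 (adjusted p = 0.00097), from 229 to 1194 FPKM at week 4 to 1222 to 2171 in week 24. Serpina7, thyroxine-binding globulin, rose by 2.77 (adjusted p = 0.00051), with 11.3, 1.18, 1.37 and 2.18 FPKM at week 4 and 27.9, 46.1, 65.0 and 32.6 in week 24. Prtn3, a serine protease known from neutrophil granules, rose by 3.09 (adjusted p = 0.0061), from at most 1.20 FPKM in weeks 8 and 12 to 9.58 to 23.4 at week 24. Mt2, a metallothionein that binds zinc, had no call for the line (fitted change 3.05, adjusted p = 0.076), but it fell from 66.6 to 582 FPKM at week 4 to 1.12 to 69.5 in week 8 (step -4.52, adjusted p = 0.0028) and rose again to 66.4 to 156 at week 12 (step 3.63, adjusted p = 0.041). The first of these calls was lost without CD103 and CD104, and the second without any of 6 single libraries (CD205, CD207, CD208, CD306, CD307 or CD308).

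Hamp2, a copy of the iron hormone hepcidin, had the largest fall of any gene with a trend. Its values were 75.8, 85.5, 314 and 182 FPKM at week 4 and 41.1 to 139 in week 8. They were 4.19 to 52.8 at week 12, 89.5 to 157 in week 16 and 4.34 to 63.0 at week 20. At week 24 they were 2.76, 2.57, 0.87 and 4.66, a range that only CD307, CD505 and CD507 reached before. The fitted change was -4.43 ± 0.92 (adjusted p = 0.0031) in CD and -4.10 in HFD. Hamp itself had a fitted change of -1.53 without a call and was between 159 and 2735 FPKM. Both genes are close copies, so that reads may have been divided between them. Of the 20 genes of metal handling, 3 rose (background 7.64%: Slc30a1, Slc39a14 and Trf, which export or import zinc and carry iron in plasma) and 3 fell (background 7.22%: Hamp2, Slc39a4 and Ftl1), and without CD103 and CD104 these were 2 and 1. Trf lost its call without any of 5 single libraries, and Ftl1 without CD103 or without CD104.

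The genes of fat burning and of fat building moved in opposite directions. Of 24 PPARα targets and ketogenesis genes, 10 rose and 0 fell (background 7.64%), at a median of 0.71, and all 24 fitted changes were above 0. Those that rose included Cyp4a14 and Cyp4a31, which hydroxylate fatty acids, the thioesterases Acot1 and Acot2, Acadm, Acadl, Hadha and Hadhb of mitochondrial oxidation, and Vnn1. Of 19 tested lipogenesis genes, 5 fell and 0 rose (background 7.22%), at a median of -0.65: Scd1, Thrsp, Pklr, Acss2 and Me1. Both counts rested on the week-4 libraries that stood apart, since without CD103 and CD104 there was 1 rise among the PPARα targets and no fall among the lipogenesis genes, with medians of 0.555 and -0.54. Without week 24 neither list had a call. Single libraries left out also ended calls: Cyp4a14 without CD103, Hadhb without any of 3 libraries, Acot1 of 6, Acadm of 9, Acss2 and Me1 of 4, Thrsp of 5 and Pklr of 17. In HFD liver, 10 of the lipogenesis genes fell (background 7.26%) and 0 rose, at a median of -0.96. Of the PPARα targets, 3 rose there (background 8.53%) and 0 fell, at a median of 0.17. The fitted change of Cyp4a14 was 4.38 in CD and 0.06 in HFD, and the difference in slope of -4.31 ± 1.37 (SE) was not called (adjusted p = 0.40).

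Neither list moved steadily. The PPARα targets had their higher means at weeks 12, 16 and 24 (mean log2 level 6.30, 6.46 and 6.53) and lower ones at weeks 4, 8 and 20 (5.31, 5.38 and 5.76). The lipogenesis list was low at weeks 12, 16 and 24 (4.85, 4.74 and 4.74) and high at weeks 4, 8 and 20 (5.60, 5.76 and 5.59). Cyp4a14 went from 57.3, 14.8, 41.6 and 63.5 FPKM at week 4 and 2.45 to 84.4 in week 8 to 87.7, 1724, 1182 and 1655 at week 12. Its values were 276 to 2029 FPKM at week 16, 54.9 to 454 in week 20 and 457 to 1138 at week 24. Only CD304 among the week-12 mice was near the level of week 8, and the step from week 8 to 12 was 5.36 ± 0.99 (adjusted p = 0.0096), a call lost without CD306 or without CD308. Scd1, the desaturase that makes oleate, ran the other way, with 259, 1079, 1601 and 1733 FPKM at week 4, 471 to 1139 in week 8, 87.7 to 449 at week 12, 321 to 2653 in week 20 and 130, 110, 81.5 and 32.7 at week 24. Its fitted change was -2.58 ± 0.82 (adjusted p = 0.037), and the call was lost when any of 8 single libraries was left out. Cd36, the fatty acid translocase, and Plin4, a lipid droplet coat protein, rose by 1.94 and 2.06, and both means followed the PPARα order (14.6 FPKM for Cd36 at week 12, 18.3 in week 16, 8.33 at week 20 and 20.1 in week 24).

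Cholesterol synthesis differed between weeks without a line. None of its 24 genes had a trend, while 22 differed among the 6 weeks (background 55.3%). Between week 16 and week 20, 19 of the 24 rose (background 10%) and 0 fell, at a median of 1.29, and the median of the same step in HFD liver was -0.06. Fdps, farnesyl diphosphate synthase, stood at 28.9, 14.5, 55.8 and 16.2 FPKM at week 16 and at 171, 212.85, 180 and 150 in week 20, with no overlap (step 2.78 ± 0.50, adjusted p = 0.0024). At week 24 it had 31.2, 103.63, 87.9 and 90.9 FPKM, below every mouse of week 20. Only CD601, at 31.2, was then within the range of week 16. Sqle, squalene epoxidase, had 1.85 to 9.80 FPKM at week 16 and 22.0 to 32.8 in week 20 (step 2.53, adjusted p = 0.002), and Insig1, the sterol-regulated anchor of the SREBP complex, fell by 1.5 from week 20 to 24 (adjusted p = 0.025), a call lost without CD501, CD502, CD605 or CD606. The line of the list depended on the weeks used: without week 20, 5 of the genes fell (median -0.66), without week 4, 1 rose (median 0.35), and a linear contrast with within-week error called 3 falls.

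**Figure D4:**
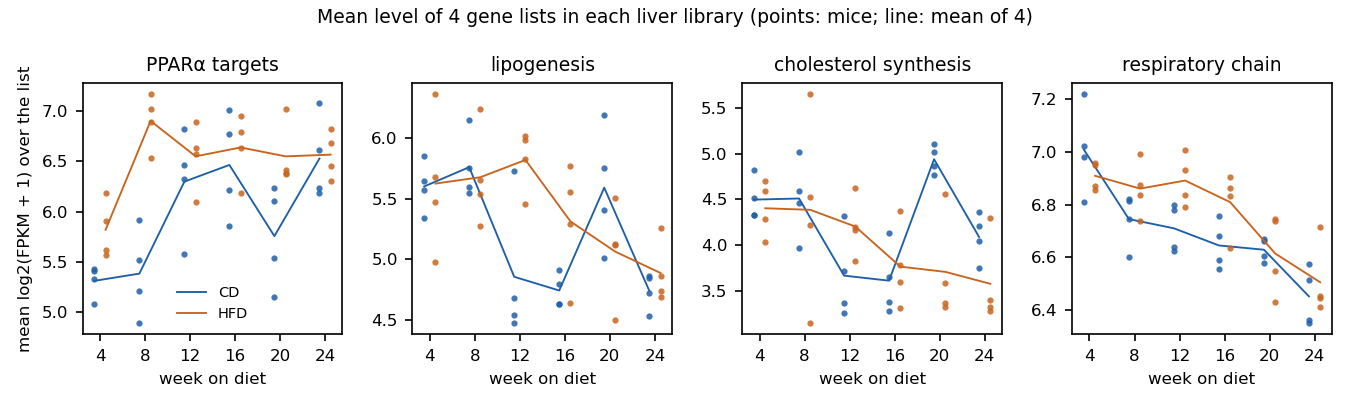
Mean log2(FPKM + 1) over all genes of 4 lists in each liver library against weeks on diet, with a point per mouse, lines through the mean of 4 mice, CD in blue and HFD in orange. In CD the PPARα targets are high where lipogenesis is low (weeks 12, 16 and 24), cholesterol synthesis peaks at week 20 (4.94), and the respiratory chain goes from 7.01 in week 4 to 6.45 at week 24.

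Several glutathione S-transferases, which conjugate electrophiles to glutathione, fell. Of 17 tested NRF2 targets, 7 fell and 0 rose (background 7.22%), and all 7 were detoxification enzymes: Gsta2, Gsta4, Gstm1, Gstm2, Gstm3, Gstm4 and the epoxide hydrolase Ephx1. The classical NRF2 targets Nqo1, Gclc, Gclm, Srxn1 and Txnrd1 had fitted changes between -0.16 and 0.26, Gsta1 had -1.19, all without a call, and the list's median was -0.16. Without CD103 and CD104, 5 fell, and without week 24 none did. Gsta2 had 9.78, 22.4, 37.0 and 54.9 FPKM at week 4, 19.3 to 46.4 in week 8, 18.3 to 58.6 at week 12, 8.97 to 22.5 in week 16, 9.74 to 19.3 at week 20, and 2.33, 1.98, 1.78 and 4.98 in week 24. Week 24 was below every mouse of every other week, and the fitted change was -2.74 ± 0.46 (adjusted p = 0.00067), against -1.30 in HFD. Gstp1, an abundant transferase that is higher in male than in female mouse liver, went from 3674, 8463, 7009 and 5183 FPKM at week 4 to 1489 to 2520 in week 16, 2538 to 4122 at week 20 and 1853, 1623, 1927 and 945 in week 24. It fell by 1.75 on the log2 scale (SE 0.27, adjusted p = 0.00037), and it was among the genes called whichever week was left out. Gstp2 had a fitted change of 0.25 without a call. Inmt, an N-methyltransferase, fell by 1.94 (adjusted p = 0.0015), with 42.2 to 167 FPKM at week 24 against 191 or more in all earlier mice.

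Markers of the portal zone fell and some of the central zone rose. Of 13 periportal genes, 8 fell (background 7.22%) and 1, Ctsc, rose, at a median of -0.74, and the counts were 8 and 1 without CD103 and CD104 as well, but 0 and 1 without week 24. Ass1, the urea-cycle enzyme argininosuccinate synthase, had 2092, 4341, 4453 and 3909 FPKM at week 4, 1837 to 2414 in week 8, 1219 to 2145 at week 16 and 1531, 774, 530 and 1432 in week 24. The mice CD605 and CD606, at 774 and 530 FPKM, were below every earlier mouse, the other two overlapped CD403 or CD505, and the fitted change was -1.45 ± 0.28 (adjusted p = 0.0013). Gls2, liver glutaminase, fell by 0.99, Hal, histidase, by 0.93, Cyp2f2 by 0.91, Arg1, arginase, by 0.48, Cdh1 by 0.85 and Etnppl by 1.84. Among 16 pericentral genes, 4 rose (background 7.64%) and 1 fell, 3 and 0 without CD103 and CD104 and none without week 24: Glul, glutamine synthetase, by 0.45, the Wnt targets Axin2, Lgr5 and Tbx3 by 0.64, 0.43 and 1.21, and Cyp2a5, which fell by 1.86 and lost its call when any of 17 single libraries was left out. Arg1 lost its call without any of 3 single libraries and Lgr5 of 5. The other 11, Cyp2e1 and Cyp1a2 among them, had no call, and the list's median was 0.20.

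Subunits of the respiratory chain fell by small amounts in great number. Of 71 tested subunits, 53 fell and 0 rose (background 7.22%), at a median of -0.50. Without CD103 and CD104 it was 43, at a median of -0.43, and without week 24 it was 8, at a median of -0.51. The mean log2 level of the list was 6.81 to 7.22 at week 4 and 6.35 to 6.58 in week 24, and these ranges did not overlap. Atp5k, a small subunit of ATP synthase, had 227, 284, 365 and 283 FPKM at week 4 and 146, 161, 118.09 and 148 in week 24, and fell by 0.87 (adjusted p = 0.00028). Ndufv3 of complex I fell by 0.83, from 181 to 266 FPKM to 104.28 to 122.83. HFD liver went from a mean log2 level of 6.86 to 6.96 at week 4 to 6.41 to 6.71 in week 24. Of 80 tested ribosomal protein genes, 22 fell and 0 rose, at a median of -0.30, and without CD103 and CD104 it was 4. The sum of FPKM over all genes moved as well, from 646748 to 672369 at week 4 to 589933 to 621970 in week 24. Median-ratio size factors were 0.965 to 1.017 at week 4 and 0.957 to 1.05 in week 24. Atp5k and Ndufv3 kept their calls when values were scaled by them. Beyond this scaling, the part of the sum in these results was not tested.

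Macrophage markers rose late. Of 14 Kupffer cell and macrophage markers, all tested, 8 rose (background 7.64%) and 0 fell, at a median of 0.71, and 13 rose without CD103 and CD104. Single libraries left out gave 4 to 10, and leaving out week 24 gave 0, with a median of 0.35. Marco had 0.50 to 1.94 FPKM in all 16 mice of weeks 4 to 16, 1.01, 3.53, 3.54 and 3.70 at week 20 and 3.65, 3.36, 3.90 and 2.30 in week 24. It rose by 1.32 ± 0.24 (adjusted p = 0.001), mostly in the step from week 16 to 20 (1.01, adjusted p = 0.011). Vsig4, the complement receptor of Kupffer cells, rose by 0.99, Cd5l by 1.01, and Cd163, the haemoglobin scavenger receptor, by 1.07. Clec4f, which is confined to Kupffer cells, had a fitted change of 0.45 without a call and stood at 11.2 to 18.3 FPKM at week 16 and 18.9 to 37.8 in week 24. The summed level of the 14 markers was 99.0 to 247 FPKM at week 4, 100.6 to 153 in week 16, 228 to 259 at week 20 and 196 to 326 in week 24. Cd68 and Lyz2 rose too, by 0.83 and 0.81, and lost their calls without any of 18 and 16 single libraries. In whole liver, more cells of a type and more RNA per cell cannot be told apart.

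Other cell types had fewer markers above the filter. All 3 tested neutrophil markers of 10 rose, also without CD103 and CD104, S100a8 and S100a9 by 1.55 and 1.46 and Csf3r by 0.30, and S100a8 had 6.80, 2.45, 7.88 and 8.56 FPKM at week 24 against at most 3.25 before. S100a8 was thus highest in the week in which the acute-phase genes had their highest mean, and the part of these cells in that rise was not tested. The other 7, Ly6g and Retnlg among them, stayed under the filter. Of 12 tested stellate cell and fibroblast markers, 6 rose and 0 fell (background 7.64%), and 1 of 11 rose without CD103 and CD104. Rgs5, a pericyte gene, had 1.03, 1.66, 1.74 and 1.40 FPKM at week 4 and 2.05 to 9.44 in all later mice, and Dcn, decorin, 22.8 to 34.0 in week 4 and 37.4 to 71.9 later. Both differed between week 4 and week 8, with adjusted p of 0.0082 for Rgs5 and 0.0043 for Dcn. None of 14 endothelial markers had a trend, at a median of 0.31. From week 4 to week 8, 3 of them rose (background 22%). Without CD103 and CD104, 8 rose in that step, where 1.61% of all genes were called in either direction. The median of the step was 0.48 in CD, 1.04 without these 2 mice and -0.47 in HFD. Only 1 of 14 B cell and 1 of 23 T and NK cell markers was tested, and none of 6 adipocyte markers.

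Some hormone receptors rose, and a few genes that are higher in male than in female liver fell. Esr1, the oestrogen receptor, rose by 0.83 (adjusted p = 0.0042) and Prlr, the prolactin receptor, by 0.64 (adjusted p = 0.02), the last not without CD103 and CD104. Of the 19 tested genes of the growth hormone axis, 3 rose (background 7.64%) and 0 fell, and 16, Ghr, Stat5b and Igf1 among them, had no call. Without CD103 and CD104 the counts were also 3 and 0, but Prlr was then not among the 3. Of 25 tested male-biased genes, 5 fell (background 7.22%) and 1, the complement gene C8a, rose, with the same counts without CD103 and CD104, and their median was -0.01. The 5 were Gstp1, Cyp2f2, Cyp2d9, Ugt2b1 and Mup7. Mup7 and the other major urinary protein genes are near-identical copies whose reads may have been divided between them, and Mup7 alone among 19 had a trend (-1.18, adjusted p = 0.02), which was lost without CD608, while Ugt2b1 lost its call without any of 11 single libraries.

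Within week 8, a single mouse stood apart from the other 3 in genes of the circadian clock. CD205 at week 8 had 0.43 FPKM of Dbp, the output factor of the clock, where the other 3 mice had 92.2, 98.8 and 62.5, and 9.25 FPKM of Arntl, the clock activator, where they had 0.62, 0.69 and 0.80. The islets of CD205 had 7.33 FPKM of Dbp against 19.3 to 26.1 in the other 3 mice of its week, and 8.92 of Arntl against 4.23 to 4.43. Both tissues of this mouse thus differed from the other 3 of its week in the same sense. Among islets of other weeks, those of CD608 at week 24 had a near-equal 7.41 FPKM of Dbp, with 3.63 of Arntl. None of the 13 clock repressor and output genes had a trend, and neither Dbp nor Arntl did. The mean log2 level of these 13 genes was 2.094 to 4.012 in week 8 and 2.251 to 3.739 at week 24. Low levels of the list were thus not confined to week 8. Cdkn1a, the cell cycle inhibitor p21, had 10.8 FPKM in the liver of CD205 and 0.56 to 0.62 in the others of week 8. At week 24 it had 4.83, 9.99, 31.5 and 9.15 FPKM. CD606, the mouse with 31.5, also had 123 FPKM of the heat shock gene Hspa1b, where the other 23 had at most 58.2.

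Some genes jumped between consecutive weeks, and H2-Aa, Prodh and Serpina1b did so in both diets. H2-Aa, the alpha chain of an MHC class II molecule, was listed at 0 in all 4 CD mice of week 16 and had 0 to 3.21 FPKM at week 4, with 17.1, 13.5, 11.7 and 16.4 FPKM in week 12 and 8.88, 13.4, 6.25 and 5.89 at week 20. In HFD liver it had 1.08, 1.34, 4.52 and 0 FPKM at week 16 and 18.3 to 26.0 in week 12. Its partner chain H2-Ab1 had 6.71 to 15.7 FPKM in CD at week 16, and Cd74, the invariant chain, 15.8 to 30.6, and neither was listed at 0. Prodh, proline dehydrogenase, fell from 110, 62.1, 85.4 and 104.36 FPKM at week 12 to 2.34, 4.46, 9.34 and 4.44 in week 16 and returned to 38.5 to 67.0 at week 20. The step from 12 to 16 was -3.98 (adjusted p = 5.3e-08) in CD and -4.06 in HFD. Serpina1b, an alpha-1 antitrypsin gene, had 764, 1024, 843 and 1028 FPKM at week 16 and at most 126 in every other CD mouse, and in HFD 901 to 1036 in week 16 and at most 154 otherwise. Mup10 had 237, 2768, 4196 and 1509 FPKM at week 12 and 1.29 to 14.2 in all other CD mice but CD104, which had 536. H2-Q10, a class Ib gene, was lowest at week 12, with 31.7 to 70.9 FPKM, and was 634 to 1006 in week 16. Serpina1b, Mup10 and H2-Q10 belong to families of similar copies, among which the assignment of reads may vary.

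**Figure D5:**
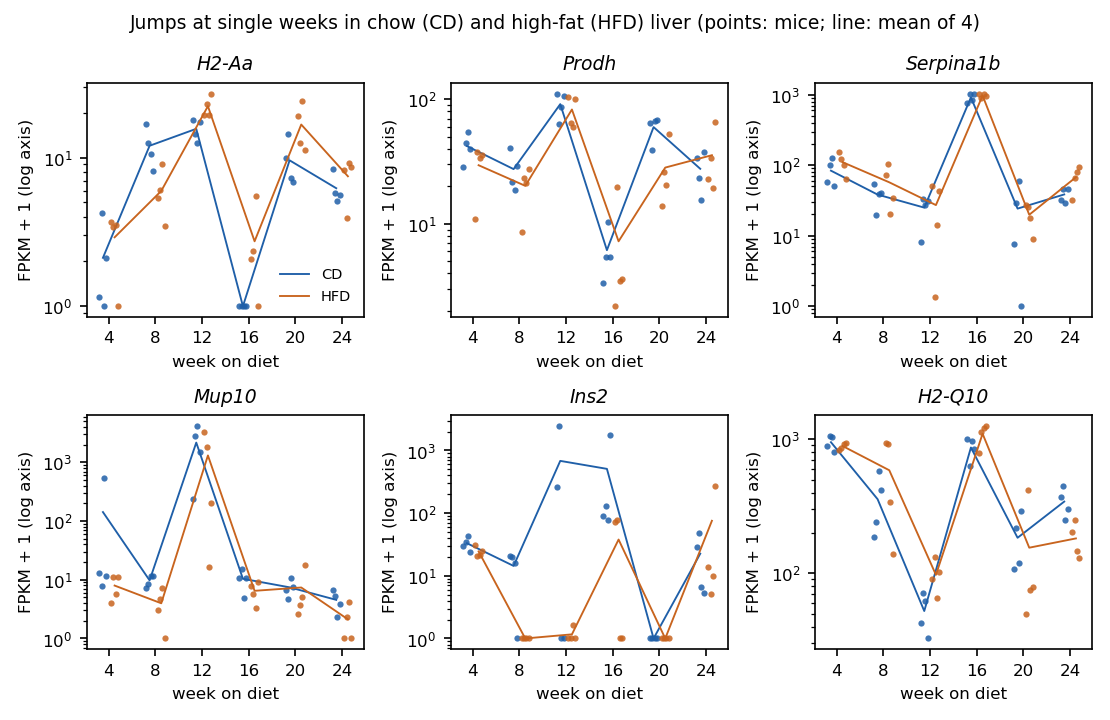
FPKM + 1 (log axis) against weeks on diet for 6 genes in CD (blue) and HFD (orange) liver, with a point per mouse and lines through the mean of 4 mice. H2-Aa and Prodh drop at week 16, Serpina1b is high only in week 16, Mup10 is high at week 12 and in CD104 in week 4, and Ins2 is at 0 in all week-20 mice of both diets.

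Ins2, an insulin gene that liver does not express, was above 0 in all libraries but those of CD208, CD307, CD308 and the 4 mice of week 20. It stood at 2467 FPKM in CD306 and 257 in CD304 at week 12, with 0 in CD307 and CD308. At week 16 it was 1738 in CD407 and 87.6, 129 and 75.7 in the others, at week 4 it was 23.2 to 42.1, and in week 20 it was 0 in all 4. The islet libraries of the same 24 mice had 394273 to 594077 FPKM. CD306 also had 28.8 FPKM of the acinar gene Ctrb1 and CD407 had 11.8, where all other CD livers had at most 4.96, the value of CD304. These transcripts entered the step from week 16 to 20, where Ins2 and Ins1 were among the 3 lowest genes. Without CD306 and CD407 the step from week 8 to 12 had 29 genes in place of 371, and that from 12 to 16 had 52 in place of 298. At an unadjusted p under 0.05 (limma) these were 2029 in place of 2486 and 2006 in place of 2412. The step from week 8 to 12 had 26 genes without CD306 alone and 1071 without CD304, which also carried Ins2. The part of the pancreas transcripts in these counts was not tested.

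Few slopes differed between the diets. Of 10879 genes tested over all 48 livers, 15 had a slope that differed (0.138%), 11 more positive in HFD (0.101%) and 4 more negative (0.0368%). Cd163 rose by 1.07 in CD, from 0.59 to 1.41 FPKM at week 4 to 2.56 to 5.57 in week 24, and had a fitted change of -0.51 in HFD, from 1.5 to 2.3 to 0.11 to 1.37. The difference was -1.58 ± 0.28 (adjusted p = 0.0034). Tm7sf2, a sterol reductase, had 35.7 to 117 FPKM in CD and went from 67.9 to 112.03 to 11.4 to 28.0 in HFD (difference -1.83, adjusted p = 0.012). Both held without CD103 and CD104, whereas Cidea (4.27), Uap1l1 (1.84), Gpnmb (1.78) and Dgcr6 (-1.82) did not. Cidea, a lipid droplet fusion protein, was under 2 FPKM in 23 of 24 CD livers and 11.8 in CD605, while it reached 36.5 to 86.3 in HFD at week 24. Dgcr6 in CD had 3.77 to 5.88 FPKM in the 4 mice of week 4 and 17.1 to 32.2 in all 20 later mice, and was 17.1 to 38.7 in HFD throughout. Of the 1538 CD trend genes tested in HFD, 1499 had the same sign there (97.5%, against 75.7% of all genes tested in both), and 758 were called in both, which is 49.1% of the CD genes and 44.7% of the 1694 HFD genes (15.8% of those tested). Without CD103 and CD104, 446 of the 692 CD genes were called in both.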

How the data were processed

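Bulk RNA-seq values of 96 libraries were deposited as one table of FPKM for 21990 genes, of which 20155 had values. The submitters' processing notes name HISAT2 2.0.4, Bowtie2 2.2.5, RSEM 1.1.12, DESeq2 and the build GRCm38.p5, without their roles, and the authors deposited FPKM per gene and library. Counts were not used here, so depth is unknown and FPKM scales each library by its total. Groups came from the sample labels. The 24 columns of HFD islets were not used, nor were the authors' columns of fold changes, p-values and q-values between groups.

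Values were tested as log2(FPKM + 1), after keeping genes at 1 FPKM or more in at least 4 libraries, with limma 3.58.1 in R 4.3.3 (mean-variance trend, robust). The model had week as a number, or the means of 6 weeks, and p-values were Benjamini-Hochberg adjusted over all genes tested with a threshold of 0.05. Fold changes on this scale understate changes of low genes. Each mouse gave 1 library per tissue. In the fit of week means the error is the spread between mice of the same week. With week as a number it also holds the deviations of single weeks from the line. That fit takes the mice as independent, although the mice of a week were collected together. The statistics were tested on simulated data.

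The members and gene lists were chosen with earlier results of these data known. Named genes were the 10 largest changes each way among trend genes, the 5 each way between week 24 and week 4, the 3 each way per step and for the slope difference, and any list member, passing over predicted genes, and other genes named were chosen after their values were seen. Another pseudocount, other filters, size factors, left-out weeks and left-out libraries were tried. Promoter sequences came from RefSeq (GRCm38.p6). Results for a few genes are not reported here.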

Additional observations from a re-analysis of the deposited data

Results flagged for a closer look

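In groups of 4 mice, 17 of 166 gene and week groups, from 28 genes, held a value far from the other 3 by Dixon's criterion. Some of these genes were chosen after their values were seen. The count therefore cannot be set against the rate of about 1 in 20 that chance gives. CD205 at week 8 held 3 of them, with 9.25 FPKM of Arntl, 10.8 of Cdkn1a and 0.43 of Dbp. At week 4, Ldha was 486 FPKM in CD101 and Mup10 536 in CD104. At week 8, Ins2 was 0.0 FPKM in CD208. At week 12, Cyp4a14 was 87.7 FPKM and Serpina1b 7.04 in CD304, Cidea 1.5 in CD306 and Gstp1 5898 in CD307. At week 16, Cdkn1a was 6.43 FPKM in CD401 and Ins2 1738 in CD407. At week 20, Marco was 1.01 FPKM in CD501, Prodh 38.5 in CD502 and Cd163 3.49 in CD507. At week 24, Fdps was 31.2 FPKM and Saa1 27112 in CD601.

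Of the 15 genes whose slope differed between the diets by limma's test of the product of diet and week, the 3 largest differences each way, as HFD minus CD over 20 weeks on the log2 scale, were 4.27 for Cidea, 1.84 for Uap1l1, 1.78 for Gpnmb, -1.83 for Tm7sf2, -1.82 for Dgcr6 and -1.58 for Cd163. The calls of Cidea, Uap1l1, Gpnmb and Dgcr6 were lost without CD103 and CD104.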

How the results depend on the processing

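The counts moved by over 1.5 times under the alternatives given here, and the causes were not tested. The trend had 744 genes without week 4, 2629 without week 8, 82 without week 24, 2999 by a linear contrast with within-week error, and by limma 0 (1029 at an unadjusted p under 0.05) with the 6 week means as 6 values. Steps are given here as the percent of genes tested that were called, since the alternatives test different numbers of genes. With CD103 and CD104 left out, chosen after seeing the data, 692 genes had a trend, 1117 differed between week 24 and week 4, 4 slopes differed between diets, and the 5 steps in order had 1.61, 10.5, 14.9, 23.5 and 1.78%. With CD306 and CD407 left out, also chosen after seeing the data, the steps from week 8 to 12, 12 to 16 and 20 to 24 had 0.28, 0.502 and 0.232%. Size factors gave 4.92% for 12 to 16 and 1.18% for 20 to 24. With no filter, 8 to 12 had 1.14% and 20 to 24 had 0.073%. The stricter filter gave 2.85% for 12 to 16, on fewer genes, and 3 slopes, and a pseudocount of 0.1 gave 8 slopes. Fits of only the 8 libraries compared gave 1854 genes for week 24 against 4, and 5.89% for 4 to 8, 6.24% for 12 to 16 and 0.259% for 20 to 24.

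Leaving out single libraries gave 884 (CD606) to 1874 (CD205) trend genes, 2439 (CD104) to 4556 (CD106) for week 24 against 4, 4549 (CD103) to 6207 (CD106) among weeks, and 7 (HFD616) to 26 (HFD614) slopes. The steps in order ranged from 17.6 (CD103) to 41.1% (CD106), 0.251 (CD306) to 10.3% (CD304), 0.666 (CD306) to 6.65% (CD106), 5.81 (CD502) to 17.2% (CD106) and 0 (CD501; limma, 1416 genes at an unadjusted p under 0.05) to 1.19% (CD101). Of the values of single genes, 5497 kept direction and side of the threshold, 729 lost the call and 0 reversed. No paired analysis was possible because each mouse was sampled in 1 week, so that weeks share no mouse number.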
